A study of Mus musculus with 69 samples.

Results

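The genes described here are the homeobox and paired-box developmental regulators of 9 families, chosen by their symbols from the mRNA-seq count table of wild-type and H3.3K27R mutant mouse embryonic stem cells (ESCs). A row was taken when its symbol was Hoxa to Hoxd, Pax, Lhx, Nkx, Dlx, Irx, Meis or Pbx with its number and nothing after it, or a numbered sine oculis homeobox gene such as Six4 or Six5. This gave 74 of the 16263 genes of the table: 33 Hox, 6 Pax, 5 Lhx, 9 Nkx, 3 Dlx, 5 Irx, 3 Meis and 4 Pbx genes and the 6 sine oculis genes. GENCODE names 95 protein-coding genes of these families, and 21 of them were not analysed here, among them Hoxa6, Hoxa13, Nkx2-1 and Pax5.

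WT cells were the J1 line, a male ESC line of 129S4/SvJae origin. In the mutant clones, Mut18 and Mut43, lysine 27 of histone variant H3.3 was replaced by arginine through gene editing of both genes that encode it, H3f3a and H3f3b. The series was made to ask what acetylation of that residue does for enhancers, and mRNA-seq and ATAC-seq were each done on 2 replicates of each line. Each mutant line is 1 clone and WT is 1 line, so within a clone the mutation and what else sets that clone apart cannot be told apart. All 3 lines had been grown on feeder cells and then for a pair of feeder-free passages. With 2 libraries of each line, p-values measure the spread between these libraries.

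Homeobox genes encode transcription factors that bind DNA through a homeodomain, and Pax genes add a paired domain. Hox genes sit in 4 clusters and give cells their position along the head-to-tail axis, with Pbx and Meis proteins as their DNA-binding partners, while Pax, sine oculis, Lhx, Nkx, Dlx and Irx factors specify eye, ear, kidney, muscle, heart and regions of the nervous system. In ESCs most of these genes are held nearly silent, and many of their promoters carry activating and Polycomb marks together.

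The libraries held 14992756 to 15143998 counts, and the 12 ESC markers examined were present in every library, with Pou5f1 between 10007 and 12814 normalized counts (counts scaled to a common library size). Of the 14061 genes with enough counts to test, 461 were over 2-fold higher and 794 over 2-fold lower in the 4 mutant libraries than in the 2 WT libraries, at an edgeR adjusted p under 0.05. The median log2 fold change was 0.39 over the 1182 tested genes of chromosome 11 and between -0.08 and 0.07 on the other autosomes. That chromosome holds 13 members, the 10 Hoxb genes with Lhx1, Dlx3 and Meis1. Changes are given both as measured and less the chromosome's median for Hoxb2, Hoxb3, Hoxb9, Hoxb13 and Meis1, and as measured for the others. The shift differs from chromosome to chromosome and its part in a member's change was not tested.

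Promoter sequences from RefSeq (build GRCm38.p6) were matched by symbol for 49 of the 74 members. Those shown are the 250 bases before the transcription start of a gene whose transcript rose (Six4), of 2 whose transcripts fell (Hoxd13, Meis3), and of one with a promoter ATAC peak in WT but in no mutant library (Lhx1). Capitals mark the bases under an ATAC peak in all 6 libraries for Six4 and Meis3, and in both WT libraries for Hoxd13 and Lhx1.
Six4, chr12:73113426-73113675, reverse strand: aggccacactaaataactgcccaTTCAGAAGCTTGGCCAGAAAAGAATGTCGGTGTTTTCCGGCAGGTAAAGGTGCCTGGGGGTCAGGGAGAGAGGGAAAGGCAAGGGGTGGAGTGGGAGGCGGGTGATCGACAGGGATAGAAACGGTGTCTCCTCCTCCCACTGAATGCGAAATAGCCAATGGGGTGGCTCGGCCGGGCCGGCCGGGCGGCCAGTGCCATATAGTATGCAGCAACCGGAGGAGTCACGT
Hoxd13, chr2:74667975-74668224, forward strand: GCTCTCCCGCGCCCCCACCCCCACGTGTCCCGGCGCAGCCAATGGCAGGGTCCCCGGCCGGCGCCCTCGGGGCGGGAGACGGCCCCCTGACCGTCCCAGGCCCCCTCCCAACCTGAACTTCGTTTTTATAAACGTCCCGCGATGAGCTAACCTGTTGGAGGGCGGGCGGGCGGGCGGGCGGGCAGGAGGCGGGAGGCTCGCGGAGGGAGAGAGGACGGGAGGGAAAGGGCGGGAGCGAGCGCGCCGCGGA
Meis3, chr7:16175145-16175394, forward strand: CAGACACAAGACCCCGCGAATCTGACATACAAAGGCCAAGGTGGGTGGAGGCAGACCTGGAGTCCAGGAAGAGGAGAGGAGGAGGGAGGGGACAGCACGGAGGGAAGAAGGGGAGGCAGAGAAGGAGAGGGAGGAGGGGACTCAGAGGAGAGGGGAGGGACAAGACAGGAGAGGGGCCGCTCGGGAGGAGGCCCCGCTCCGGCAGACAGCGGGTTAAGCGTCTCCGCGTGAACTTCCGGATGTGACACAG
Lhx1, chr11:84525535-84525784, reverse strand: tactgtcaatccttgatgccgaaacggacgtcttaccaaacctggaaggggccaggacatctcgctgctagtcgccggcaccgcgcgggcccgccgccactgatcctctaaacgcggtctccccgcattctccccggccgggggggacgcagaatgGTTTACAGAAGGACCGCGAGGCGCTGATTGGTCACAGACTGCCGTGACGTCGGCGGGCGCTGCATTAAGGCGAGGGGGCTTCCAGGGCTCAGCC
All 250 bases shown for Meis3 and 227 of those for Six4 lay under a peak in all 6 libraries, and 94 bases of Lhx1 lay under one in both WT libraries and 0 in each mutant library. By significance the Lhx1 peaks ranked low, 72896 of 78536 in WT replicate 1 and 65419 of 67416 in WT replicate 2. The Hoxd13 stretch was covered whole in both WT libraries and in Mut18 replicate 2, for 72 bases in Mut18 replicate 1 and 71 in Mut43 replicate 1, and for 0 in Mut43 replicate 2.

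Over the 300-base promoters in the RefSeq table (250 before and 50 after the start), the 49 members had a median of 17 CpG dinucleotides, against 19 over 12070 genes of the count table. The 18 Hox promoters had a median of 12.5 and the 31 other members 18. Of the members, 63.3% had at least 15 CpGs, and of all genes 64.9%. The homeodomain core TAATTA stood on either strand in 1 member promoter (2.04%, against 2.64% of all), the Meis core TGACAG in 9 (18.4% against 16.8%) and the Pbx-Hox motif TGATTNAT in 2 (4.08% against 1.48%). None of these motifs holds another of them, and a match is not a site of binding. Of the Hox promoters 38.9% had at least 15 CpGs, a lower share than that of the members as a whole, and these shares were not tested.

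Most members were scarce. As counts per kilobase of exon, scaled to library size, 62 of the 74 averaged under 1 over the 6 libraries. Pbx2 averaged 10.4, Six4 6.19, Pbx3 2.36, Hoxb9 2.36 and Pax6 2.18 on that scale. In that order the libraries of neighbours did not overlap for 2 of 73 pairs, Pbx2 above Six4 and Six4 above Pbx3, and all other neighbours overlapped. Among the Hox genes described here, Hoxb9 and Hoxd13 averaged over 1.

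Of the 74 members, 48 had enough counts to test. Of these, 1 was over 2-fold higher and 16 were over 2-fold lower in the mutants at an adjusted p under 0.05, against 3.28% and 5.65% of all tested genes. Without the fold threshold 4 were higher and 27 lower, against 23.5% and 24.5%. The median log2 fold change was -0.90 over the 48 and -0.0041 over all tested genes. A scarce gene that passes the filter only because its WT counts are high had to differ. Of the 48, 10, with 8 of the 16 lower calls, would not have passed on their mutant libraries. Among these 10, Hoxb5 passed with a WT and a mutant library, and the others on WT counts alone. The shares above are therefore no support for a change of the set as a whole. The remaining 38 held 8 lower calls.

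Rules that do not look at the groups gave the same direction with fewer calls per member. Among the 32 members with a mean of 10 to 100 normalized counts over all libraries, 9 were called lower and 0 higher, against 13.8% and 7.54% of all genes of that range. Fitted with no filter, all 74 members gave 20 lower and 1 higher, against 6.33% and 3.24%, with a median log2 fold change of -0.79. Every mutant library lay below both WT libraries for 36 of the 74 and above both for 9, against 28.6% and 27.4% of the table. These are bulk libraries, in which fewer cells of a type and less RNA per cell cannot be told apart.

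**Figure D1:**
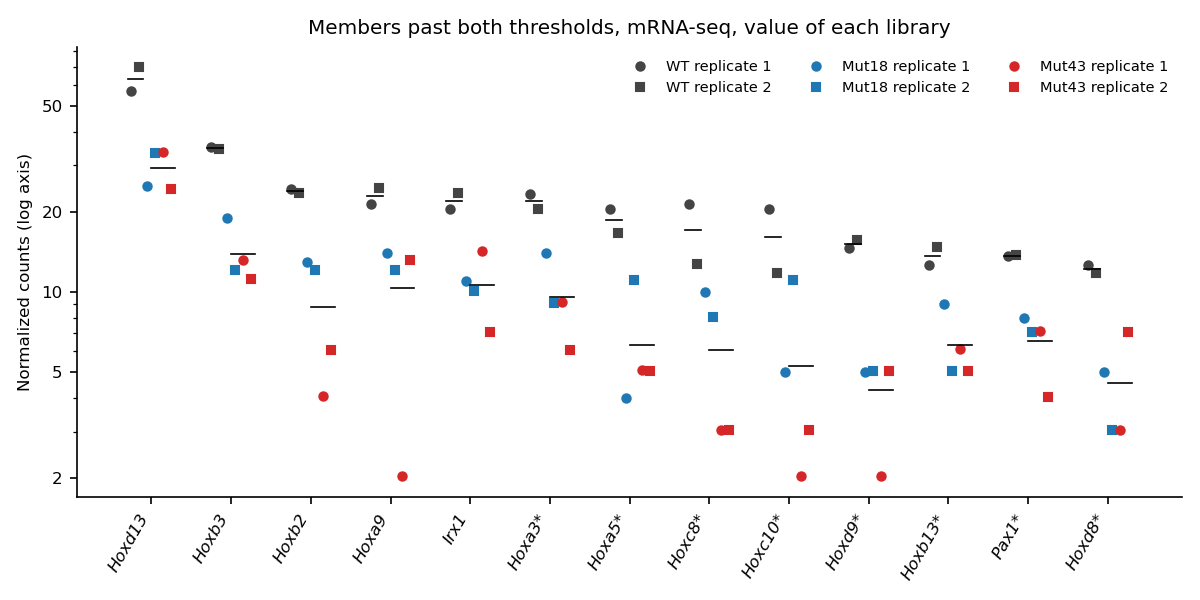
Normalized counts (log axis) of 13 members past both thresholds in each of the 6 mRNA-seq libraries, with black lines at the WT and the mutant mean. All 13 lie below WT in every mutant library, and a star marks the 8 genes that passed the filter through their WT counts alone.

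Six4, a regulator of muscle development, rose by 1.52-fold. The gene lies at chr12:73099609-73113456, reverse strand, on GRCm38. It had 758 and 745 normalized counts in the WT libraries, 1093 and 1108 in those of Mut18, and 1215 and 1151 in those of Mut43 (log2 fold change 0.60 ± 0.055 (SE), edgeR adjusted p = 1.72e-08). The groups did not overlap, all mutant libraries lying above WT. Six6, an eye and pituitary regulator, was too scarce to test, with 11.7 and 7.84 (WT), 4.01 and 6.07 (Mut18), then 6.11 and 7.10 (Mut43), its mutant libraries below both of WT. Six5, which lies on another chromosome, fell, with 43.9 and 49.01 (WT), 27.04 and 23.3 (Mut18), then 23.4 and 19.3 (Mut43) (log2 fold change -0.99 ± 0.22 (SE), edgeR adjusted p = 8.42e-04). Six4 and Six5 therefore moved in opposite directions.

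Pbx3, a TALE homeodomain protein that binds DNA together with Hox proteins, had 306 and 302 normalized counts in the WT libraries, 210.3 and 182 in those of Mut18, and 153 and 153 in those of Mut43 and fell by less than 2-fold (log2 fold change -0.80 ± 0.11 (SE), edgeR adjusted p = 3.29e-06). Every mutant library was below both WT libraries. Pbx2, the most abundant member of the family per length, had 571 and 618 (WT), 496 and 576 (Mut18), then 566 and 581 (Mut43) and did not pass the test (95% confidence interval of the log2 fold change -0.25 to 0.047, adjusted p = 0.253). Pbx4 had 52.7 and 59.8 (WT), 76.1 and 57.7 (Mut18), then 79.4 and 73.1 (Mut43) and did not pass either (adjusted p = 0.109).

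The Meis genes encode the other TALE partners of Hox and Pbx proteins, and they moved in both directions. Meis2 had 146 and 150.0 normalized counts in the WT libraries, 104 and 96.1 in those of Mut18, and 69.2 and 70.03 in those of Mut43 (log2 fold change -0.80 ± 0.15 (SE), edgeR adjusted p = 1.65e-04). Meis3 had 65.4 and 71.5 (WT), 44.1 and 39.5 (Mut18), then 28.5 and 33.5 (Mut43) (log2 fold change -0.91 ± 0.19 (SE), edgeR adjusted p = 6.14e-04). Both fell, by less than 2-fold, with no overlap between WT and mutant libraries. Meis1 had 89.8 and 80.4 (WT), 103 and 108 (Mut18), then 125 and 112 (Mut43) and rose (log2 fold change 0.40 ± 0.14 (SE), edgeR adjusted p = 0.0217), but it lies on chromosome 11, and less that chromosome's median its log2 fold change was 0.0099. Its adjusted p was 0.150 without WT replicate 2 and 0.0660 without Mut43 replicate 1.

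Among the Hox genes, 22 of 33 could be tested, 12 fell over 2-fold, 3 fell by less, and 0 rose, where 5.65% of all tested genes fell and 3.28% rose over 2-fold. Of the 12, 7 passed the filter through their WT counts alone. Among the 15 Hox genes with a mean of 10 to 100 normalized counts 7 were called lower, against 13.8% of all genes of that range. The summed level of the 33 Hox genes was 709 and 685 (WT), 443 and 423 (Mut18), then 328 and 351 (Mut43) normalized counts. The mutant mean of that sum was 55.4% of the WT mean, and no mutant library reached a WT library. Hoxb9, the most abundant Hox gene per length, held 91.7 of the 386 normalized counts of that mutant mean. Without it the mutant mean was 48.6% of WT.

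**Figure D2:**
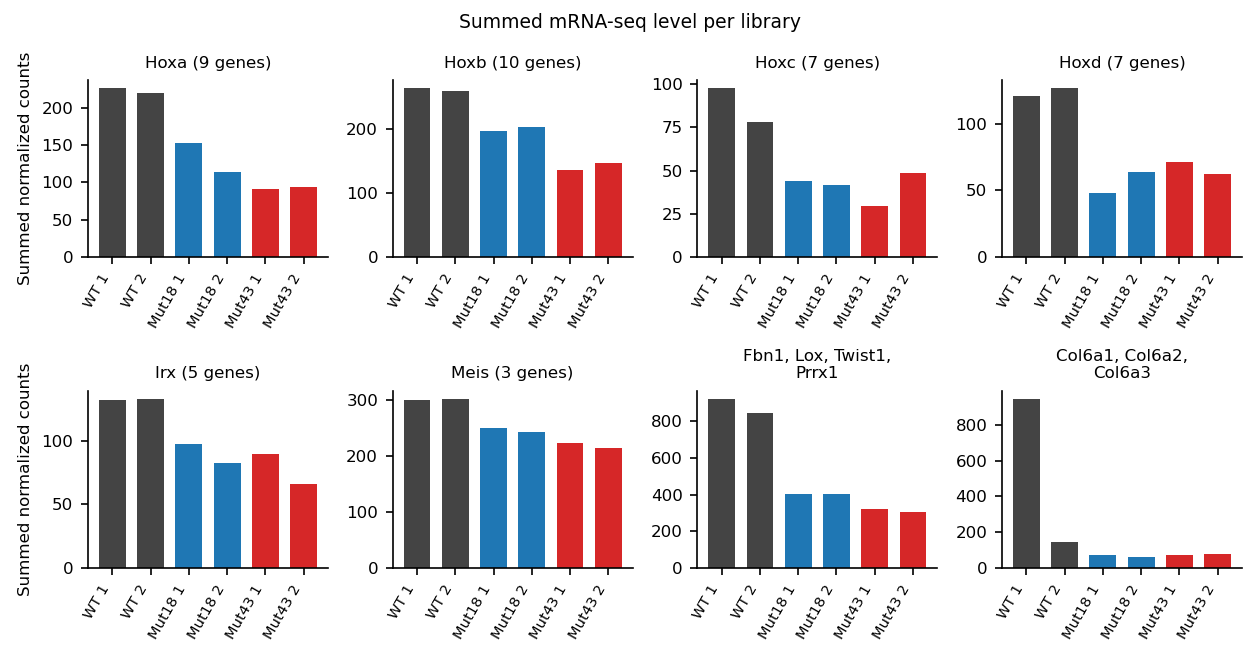
Summed normalized counts per mRNA-seq library for the 4 Hox clusters, the Irx and Meis families, and 2 groups of fibroblast markers, each on its own linear axis from 0. The marker groups were put together after their values were seen. The Hoxa, Hoxb, Hoxc, Hoxd, Irx and Meis sums are lower in all 4 mutant libraries than in both WT libraries, and the 3 collagen VI genes stand out in WT replicate 1.

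In the Hoxa cluster (chr6:52155590-52260880), genes described here fell both over and under 2-fold. Hoxa3, active in the pharyngeal arches, had 23.4 and 20.6 (WT), 14.02 and 9.10 (Mut18), then 9.16 and 6.09 (Mut43) (log2 fold change -1.19 ± 0.34 (SE), edgeR adjusted p = 0.00637). Hoxa5, of lung and neck, had 20.5 and 16.7 (WT), 4.01 and 11.1 (Mut18), then 5.09 and 5.07 (Mut43) (log2 fold change -1.54 ± 0.40 (SE), edgeR adjusted p = 0.00319). Hoxa9, best known from blood progenitors, had 21.5 and 24.5 (WT), 14.02 and 12.1 (Mut18), then 2.04 and 13.2 (Mut43) (log2 fold change -1.14 ± 0.39 (SE), edgeR adjusted p = 0.0209). For these 3 the groups did not overlap, but the counts were near the filter. Hoxa3 and Hoxa5 passed it through their WT counts alone, a selection that favours a lower mutant level. Without WT replicate 1 the adjusted p of Hoxa3 was 0.0620, and without WT replicate 2 that of Hoxa9 was 0.0971. Hoxa7 and Hoxa10 fell by less than 2-fold, with log2 fold changes of -0.92 and -0.66. The groups of Hoxa10 overlapped, with 41.97 and 46.1 (WT), 45.1 and 22.3 (Mut18), then 22.4 and 21.3 (Mut43). Its edgeR adjusted p was 0.0472, and 0.0620 in the fit with no filter. Hoxa11 was not tested, with 5.86 and 5.88 in WT and 6.01 to 11.1 in the mutants.

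In the Hoxb cluster (chr11:96194316-96368256), 8 of 10 genes were tested, 3 fell over 2-fold and 1, Hoxb4, by less. Hoxb3, a regulator of hindbrain and neck structures, had 35.1 and 34.3 normalized counts in the WT libraries, 19.02 and 12.1 in those of Mut18, and 13.2 and 11.2 in those of Mut43 (log2 fold change -1.31 ± 0.27 (SE), edgeR adjusted p = 4.50e-04). Hoxb2, which acts in the hindbrain too, had 24.4 and 23.5 (WT), 13.02 and 12.1 (Mut18), then 4.07 and 6.09 (Mut43) (log2 fold change -1.43 ± 0.37 (SE), edgeR adjusted p = 0.00280). Hoxb13, the 5′ gene of the cluster, had 12.7 and 14.7 (WT), 9.01 and 5.06 (Mut18), then 6.11 and 5.07 (Mut43) (log2 fold change -1.10 ± 0.41 (SE), edgeR adjusted p = 0.0289). All 3 were lower in every mutant library than in either WT library, and less the chromosome median their log2 fold changes were -1.70, -1.81 and -1.49. The call of Hoxb13 was lost without any single library but Mut18 replicate 1, with adjusted p from 0.0508 to 0.166. Hoxb13 also passed the filter through its WT counts alone. Hoxb9 did not pass, with 90.8 and 91.1 (WT), 98.1 and 107 (Mut18), then 71.2 and 90.3 (Mut43), a log2 fold change as measured of 0.012, with its 95% confidence interval from -0.32 to 0.34, and -0.37 less the chromosome median. Its groups overlapped, and the sign of so small a value turned with the scaling.

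In the Hoxc and Hoxd clusters, fewer genes had the counts to be tested. Of those called lower, Hoxc8, Hoxc10, Hoxd8 and Hoxd9 passed the filter through their WT counts alone, a selection that favours a lower mutant level. Hoxc8, a gene of the thoracic region, had 21.5 and 12.7 (WT), 10.01 and 8.09 (Mut18), then 3.05 and 3.04 (Mut43) (log2 fold change -1.48 ± 0.45 (SE), edgeR adjusted p = 0.00904). Hoxc10, of the lumbar region, had 20.5 and 11.8 (WT), 5.01 and 11.1 (Mut18), then 2.04 and 3.04 (Mut43) (log2 fold change -1.58 ± 0.49 (SE), edgeR adjusted p = 0.0101). In both, WT replicate 1 was the higher WT library, and without it the adjusted p was 0.174 for Hoxc8 and 0.177 for Hoxc10. Hoxc13, best known from hair and nail, had 27.3 and 23.5 (WT), 12.02 and 16.2 (Mut18), then 10.2 and 22.3 (Mut43) and missed the threshold (adjusted p = 0.0539). Hoxd13, a limb and digit regulator at the 5′ end of its cluster, had 56.6 and 69.6 normalized counts in the WT libraries, 25.03 and 33.4 in those of Mut18, and 33.6 and 24.4 in those of Mut43 (log2 fold change -1.11 ± 0.21 (SE), edgeR adjusted p = 1.46e-04). Hoxd8 had 12.7 and 11.8 (WT), 5.01 and 3.03 (Mut18), then 3.05 and 7.10 (Mut43) (log2 fold change -1.40 ± 0.46 (SE), edgeR adjusted p = 0.0149), and adjusted p of 0.0872 and 0.0553 without WT replicate 1 or 2. Hoxd9 had 14.6 and 15.7 (WT), 5.01 and 5.06 (Mut18), then 2.04 and 5.07 (Mut43) (log2 fold change -1.79 ± 0.43 (SE), edgeR adjusted p = 0.00169). These 3 Hoxd genes were lower in all mutant libraries than in WT, whereas Hoxd10 and Hoxd11, which lie between Hoxd9 and Hoxd13, had log2 fold changes of 0.094 and -0.034 and did not pass (adjusted p = 0.906 and 0.945). Neighbouring Hox genes have transcripts that overlap, and the counting program and its use of strand are not given in the sources used here, so their counts may be partly shared.

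Markers of fibroblasts, the cell type of common feeder cells, moved with the Hox genes. Of the 18 markers 17 were tested and 10 were over 2-fold lower in the mutants, 0 higher (median log2 fold change -1.27), against 5.65% and 3.28% of all tested genes. Of the 10, Dcn passed the filter through its WT counts alone. The summed level of the markers was 9262 and 6897 (WT), 5671 and 5278 (Mut18), then 4149 and 3806 (Mut43). Col1a1, the most abundant of the collagens in the list, had 1985 and 1797 (WT), 1664 and 1664 (Mut18), then 1235 and 1269 (Mut43), Lum was at 0 in 3 libraries, 1 of them WT, and the other 17 were above 0 in every library. The 3 collagen VI genes together had 942 and 147 (WT), 71.1 and 59.7 (Mut18), then 71.2 and 76.1 (Mut43), so WT replicate 1 was 6.41 times WT replicate 2, whereas the Hox sums of these 2 libraries were 709 and 685. Fbn1, Lox, Twist1 and Prrx1 together had 920.4 and 847 (WT), 406 and 406 (Mut18), then 321 and 305 (Mut43), with the WT libraries alike and above the mutants as for Hox. This group was put together after the values were seen. Col1a1 and Acta2 together fell less, with 4712 and 4369 (WT), 3983 and 3689 (Mut18), then 2790 and 2537 (Mut43). Thy1 and Twist2 did not pass the test (edgeR adjusted p = 0.939 and 0.354). The part of fibroblasts in the Hox result was not tested. Without WT replicate 1, 10 of the 16 members called lower kept that call, and 4 others were called lower.

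The other families held few calls, several of which rest on 1 library. Nkx2-9, an early neural tube gene, had 36.1 and 41.2 (WT), 20.03 and 19.2 (Mut18), then 21.4 and 25.4 (Mut43) and fell by less than 2-fold (log2 fold change -0.84 ± 0.23 (SE), edgeR adjusted p = 0.00517), with adjusted p = 0.0658 without WT replicate 2. Nkx6-2, a regulator of ventral neural tube and oligodendrocytes, had 31.2 and 40.2 (WT), 30.04 and 34.4 (Mut18), then 36.6 and 43.6 (Mut43), with overlapping groups (log2 fold change 0.018, 95% confidence interval -0.45 to 0.49). Nkx1-2, of the tail end of the embryo, also fell by less than 2-fold (log2 fold change -0.99 ± 0.30 (SE), edgeR adjusted p = 0.00904).

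Of the 4 tested Irx genes, which pattern the nervous system and heart, 3 fell at an adjusted p under 0.05, against 24.5% of all tested genes. Irx1 had 20.5 and 23.5 normalized counts in the WT libraries, 11.01 and 10.1 in those of Mut18, and 14.2 and 7.10 in those of Mut43 (log2 fold change -1.04 ± 0.33 (SE), edgeR adjusted p = 0.0113), and adjusted p = 0.0947 without WT replicate 2. Irx5 had 34.2 and 27.4 (WT), 28.04 and 18.2 (Mut18), then 12.2 and 6.09 (Mut43) and fell by less (log2 fold change -0.92 ± 0.36 (SE), edgeR adjusted p = 0.0368), 1 of its Mut18 libraries lying within the WT range, and its adjusted p was 0.189 without WT replicate 1, 0.0835 without Mut43 replicate 1 and 0.0970 without Mut43 replicate 2. Irx2, the most abundant of the family per length, had 57.6 and 38.2 (WT), 44.1 and 35.4 (Mut18), then 44.8 and 38.6 (Mut43) and did not pass (adjusted p = 0.378).

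Pax genes went both ways. Pax6, the eye and forebrain regulator, was the Pax gene with the most counts and rose slightly, with 364 and 312 normalized counts in the WT libraries, 422 and 381 in those of Mut18, and 425 and 397 in those of Mut43 (log2 fold change 0.27 ± 0.081 (SE), edgeR adjusted p = 0.0107), and adjusted p = 0.191 without WT replicate 2. Pax8, a kidney and thyroid regulator, had 53.7 and 67.6 (WT), 73.1 and 74.9 (Mut18), then 69.2 and 71.04 (Mut43), all mutant libraries above WT but not past the threshold (adjusted p = 0.220). Pax1, of the sclerotome and thymus, had 13.7 and 13.7 (WT), 8.01 and 7.08 (Mut18), then 7.12 and 4.06 (Mut43) and was called lower (log2 fold change -1.05 ± 0.40 (SE), edgeR adjusted p = 0.0350), with WT counts at the filter. It passed the filter through those WT counts alone. Its adjusted p was 0.133 without WT replicate 1, 0.131 without WT replicate 2 and 0.0822 without Mut43 replicate 2.

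No Lhx or Dlx gene passed the test. Lhx6, an interneuron gene, had 30.3 and 35.3 (WT), 49.1 and 28.3 (Mut18), then 48.9 and 39.6 (Mut43) (adjusted p = 0.259). Lhx2, an eye and forebrain gene, was too scarce to test, with 17.6 and 7.84 (WT), 5.01 and 7.08 (Mut18), then 6.11 and 1.01 (Mut43), and Lhx1, of kidney and head, had 1.95 and 4.90 (WT), 5.01 and 0 (Mut18), then 3.05 and 1.01 (Mut43). Dlx2, a forebrain and jaw gene, had 16.6 and 19.6 (WT), 15.02 and 15.2 (Mut18), then 15.3 and 11.2 (Mut43) (adjusted p = 0.363). Dlx3, of placenta and skin, had 9.76 and 14.7 (WT), 16.02 and 22.3 (Mut18), then 16.3 and 22.3 (Mut43) (adjusted p = 0.115). Dlx2 lay lower and Dlx3 higher in all mutant libraries than in WT, by less than the test required. Dlx3 lies on chromosome 11, whose tested genes had a median log2 fold change of 0.39.

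Between the thresholds, 11 members fell by less than 2-fold at an adjusted p under 0.05, with log2 fold changes from -0.99 to -0.66. They were Hoxa7, Hoxa10, Hoxb4, Nkx1-2, Nkx2-9, Six5, Irx3, Irx5, Meis2, Meis3 and Pbx3. The WT and mutant libraries of Hoxa10, Irx3 and Irx5 overlapped. In the other direction Pax6, Six4 and Meis1 rose by less than 2-fold, Meis1 by about the median of its chromosome. Of all tested genes, 24.5% were lower and 23.5% higher at an adjusted p under 0.05 over any fold. Over 2-fold, 5.65% were lower and 3.28% higher, so smaller changes were common in the table in both directions. The 17 tested members that did not pass were Hoxb5, Hoxb7, Hoxb8, Hoxb9, Hoxc13, Hoxd10, Hoxd11, Pax8, Lhx6, Nkx2-5, Nkx6-2, Nkx6-3, Dlx2, Dlx3, Irx2, Pbx2 and Pbx4.

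**Figure D3:**
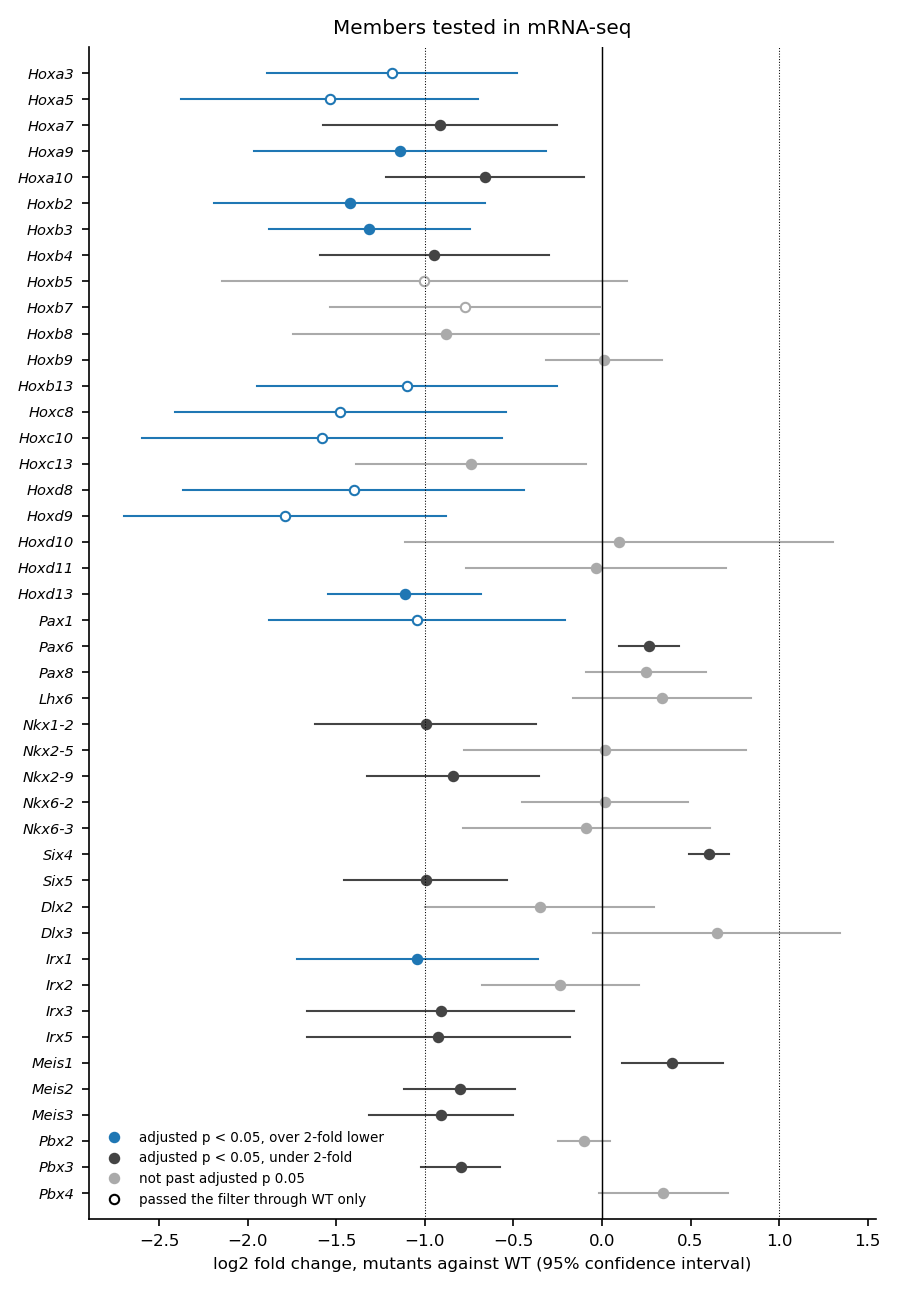
Log2 fold change of the 4 mutant against the 2 WT libraries for 44 tested members, with 95% confidence intervals from edgeR. Of those shown 13 lie beyond -1 with an adjusted p under 0.05. Open circles are the 10 that would not have passed the filter on their mutant libraries. Among them Hoxb5 passed with a WT and a mutant library, and the others through WT alone.

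The 26 members that were not tested never exceeded 17.6 normalized counts in a library, with means from 1.81 to 8.31, and 20 of them had a lower mean in the mutants. They were Hoxa2, Hoxa4, Hoxa11, Hoxb1, Hoxb6, Hoxc4, Hoxc5, Hoxc6, Hoxc9, Hoxd1, Hoxd4, Pax2, Pax3, Pax7, Lhx1, Lhx2, Lhx5, Lhx9, Nkx2-2, Nkx2-3, Nkx2-4, Six2, Six3, Six6, Dlx1 and Irx4. In the fit without a filter 4 of the 26, Hoxb1, Hoxc9, Hoxd4 and Lhx2, were called lower, against 6.33% of all genes. A lower mean in the mutants held for 56.8% of all genes with a mean under 100 normalized counts. Hoxd4 had 9.76 and 8.82 (WT), 2.00 and 1.01 (Mut18), then 1.02 and 2.03 (Mut43). Hoxb1, a hindbrain gene, had 8.78 and 15.7 (WT), 5.01 and 2.02 (Mut18), then 4.07 and 3.04 (Mut43). Both groups of each were under 16 normalized counts, so the size of these differences is poorly known. These 4 were picked out after their values were seen.

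Set against the same WT libraries, each clone gave its own count. In Mut18, 9 members were over 2-fold lower and 1 higher, against 4.74% and 2.79% of all genes, and in Mut43 26 were lower and 1 higher, against 6.81% and 3.49%. Of the 17 members called over both clones, 9 were called in each clone alone, among them Hoxa5, Hoxb3, Hoxd9, Hoxd13 and Irx1.

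The larger count in Mut43 did not come with members that passed a test between the clones. Mut43 against Mut18, 0 of the 48 members had an adjusted p under 0.05 by edgeR and 0 by DESeq2, against 0.327% of all genes by edgeR. At an unadjusted p under 0.05 there were 11, against 8.52% of all genes, and 9 of the 11 were lower in Mut43. The lowest p was that of Hoxb8, with 26.4 and 16.7 (WT), 20.03 and 15.2 (Mut18), then 7.12 and 4.06 (Mut43) (log2 fold change of Mut43 over Mut18 -1.63, adjusted p = 0.204), followed by Meis2 (-0.52, adjusted p = 0.213). The summed Hoxb level was 264 and 259.7 (WT), 197 and 203 (Mut18), then 135 and 146 (Mut43), and all 8 tested Hoxb genes had a lower value in Mut43 than in Mut18. The fibroblast marker sum was lower in Mut43 too, and its part in this was not tested.

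Genes that work with the members were read from lists. Of 14 tested partners and relatives, 5 fell over 2-fold and 0 rose, where 5.65% and 3.28% of all tested genes did, with a median log2 fold change of -0.35. Of the 5, Eya4, Dach1 and Dach2 passed the filter through their WT counts alone, so that they had to be lower. Lmo4, a LIM-only protein, had 421 and 443 (WT), 198 and 206 (Mut18), then 144 and 179 (Mut43) (log2 fold change -1.25 ± 0.10 (SE), edgeR adjusted p = 3.01e-09). Pknox2, a TALE relative of Meis, had 56.6 and 62.7 (WT), 25.03 and 29.3 (Mut18), then 29.5 and 20.3 (Mut43) (log2 fold change -1.19 ± 0.21 (SE), edgeR adjusted p = 7.57e-05). Dach1, a cofactor of sine oculis proteins, had 20.5 and 17.6 (WT), 4.01 and 8.09 (Mut18), then 2.04 and 3.04 (Mut43) (log2 fold change -2.12 ± 0.44 (SE), edgeR adjusted p = 3.73e-04).

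Of 15 tested genes upstream of Hox genes or in retinoic acid signalling, 1 rose and 2 fell over 2-fold (median -0.30), against 3.28% and 5.65% of all tested genes. The 1 that rose passed the filter through its mutant counts alone. Stra8, a retinoic acid target of germ cells, rose, with 8.78 and 18.6 (WT), 65.1 and 55.6 (Mut18), then 84.5 and 92.4 (Mut43) (log2 fold change 2.43 ± 0.29 (SE), edgeR adjusted p = 7.44e-07). The nuclear receptor Rxrg fell, with 85.9 and 86.2 (WT), 46.1 and 30.3 (Mut18), then 23.4 and 30.4 (Mut43) (log2 fold change -1.40 ± 0.20 (SE), edgeR adjusted p = 9.72e-06), as did the retinal reductase Dhrs3, with 90.8 and 81.3 (WT), 43.1 and 36.4 (Mut18), then 34.6 and 35.5 (Mut43) (log2 fold change -1.20 ± 0.17 (SE), edgeR adjusted p = 7.28e-06). The genes of this list did not share a direction.

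Of the noncoding RNAs of the Hox clusters 4 of 15 had a row and 2 were tested, 1 of which fell over 2-fold, against 5.65% of all tested genes. Hotairm1, a transcript of the Hoxa cluster that passed the filter through WT alone, fell over 2-fold, with 12.7 and 14.7 (WT), 5.01 and 4.05 (Mut18), then 4.07 and 4.06 (Mut43) (log2 fold change -1.64 ± 0.43 (SE), edgeR adjusted p = 0.00302). Among 11 subunits and cofactors of PRC2, the complex that methylates lysine 27 of histone H3, Phf19 rose over 2-fold, with 105 and 123 (WT), 205 and 203 (Mut18), then 259.5 and 267 (Mut43) (log2 fold change 1.03 ± 0.13 (SE), edgeR adjusted p = 1.45e-06), and the median was 0.15. At an adjusted p under 0.05 without a fold threshold 6 of the 11 were higher and 2, Rbbp4 and Rbbp7, lower, against 23.5% and 24.5% of all tested genes. Suz12 and Ezh1, 2 of the 6, lie on chromosome 11.

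Of 26 tested homeobox and other developmental regulators outside the 9 families, 4 fell over 2-fold and 0 rose (median -0.11), against the same 5.65% and 3.28%. Of the 4, Foxa2, Emx2 and Alx1 passed the filter through WT alone and had to be lower. Foxa2, of endoderm and floor plate, had 10.7 and 14.7 (WT), 2.00 and 0 (Mut18), then 1.02 and 2.03 (Mut43) (log2 fold change -3.21 ± 0.63 (SE), edgeR adjusted p = 1.95e-04). Sox1, of the neural plate, had 69.3 and 74.5 (WT), 36.05 and 33.4 (Mut18), then 36.6 and 27.4 (Mut43) (log2 fold change -1.10 ± 0.19 (SE), edgeR adjusted p = 5.14e-05). Emx2, of forebrain and kidney, had 22.4 and 20.6 (WT), 1.00 and 13.2 (Mut18), then 6.11 and 3.04 (Mut43) (log2 fold change -1.87 ± 0.47 (SE), edgeR adjusted p = 0.00248). Of the markers of other cell types, 4 of 5 tested neural progenitor genes (median -1.16) and 2 of 7 mesoderm genes (median -0.21) were over 2-fold lower, and 1 mesoderm gene, Hand1, was higher. Of 4 tested endoderm genes Foxa2 was the 1 called (median -0.19), and of the 12 ESC markers Dppa3 was the 1 called, higher (median 0.28). For all of these marker lists the shares over all tested genes were again 5.65% lower and 3.28% higher. Without a fold threshold, 10 of the 12 ESC markers were higher and 2 lower at an adjusted p under 0.05. Of all tested genes, 23.5% were higher and 24.5% lower by that rule. The fifth tested neural gene, Tubb3, a neuronal tubulin, rose by less than 2-fold, with 1191 and 1232 (WT), 1895 and 1801 (Mut18), then 1901 and 1921 (Mut43) (log2 fold change 0.63 ± 0.045 (SE), edgeR adjusted p = 6.13e-10). Nes, an intermediate filament of neural progenitors, had 2632 and 2453 (WT), 972 and 996 (Mut18), then 796 and 795 (Mut43). T, of the primitive streak, had 247 and 243 (WT), 50.1 and 46.5 (Mut18), then 27.5 and 33.5 (Mut43). Whether the fall of Hox genes and that of these markers belong to the same cells was not tested.

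ATAC-seq marks DNA open to a transposase, and the peak lists hold 63588 to 78536 peaks a library. A member was said to have a promoter peak when a peak came within 500 bp of one of its annotated starts. This held for 55 and 50 of the 74 members in the libraries of WT, for 38 and 43 in those of Mut18, and for 40 and 40 in those of Mut43. The mutant mean was 40.25 and the WT mean 52.5, and both WT libraries were above all mutant libraries (two-sided exact permutation test over the 6 libraries, p = 0.133, the smallest this design can give). Over all 16089 placed genes the shares were 86.8% and 84.3% in WT and 81.4% to 83.5% in the mutants.

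The difference was smaller when the same number of peaks was taken from each library, and the part of list length in it was not tested. With the 63588 highest-ranked peaks taken from each library, the members with a promoter peak were 41 and 41 (WT), 38 and 40 (Mut18), and 35 and 38 (Mut43), so the mutant mean was 3.25 members below the WT mean (p = 0.133, exact permutation test, two-sided, again the smallest possible). In full, the WT lists held 78536 and 67416 peaks, with 55 and 50 members having one at the promoter. Those of Mut18 held 63588 and 69811 (38 and 43 members), and those of Mut43 68631 and 65799 (40 and 40 members). Peak calling sees a threshold and not the degree of accessibility, and the depth behind each list is not known from the files used here.

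**Figure D4:**
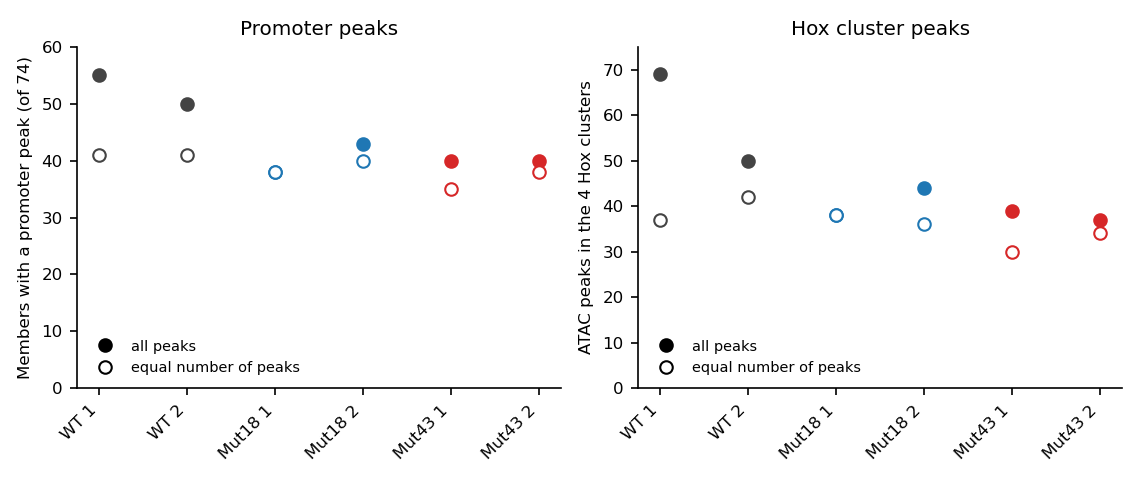
Members with a promoter ATAC peak (left, of 74) and ATAC peaks within the 4 Hox clusters (right) in each library, with all peaks (filled) and with the same number of peaks in each library (open), axes from 0. With all peaks both WT libraries lie above the mutants in both panels, and with equal numbers the gap narrows and the cluster counts overlap.

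By member, 33 had a promoter peak in all 6 libraries, 18 in none, 4 in both libraries of WT with none in a mutant, and 0 in all mutants without WT. The first 2 counts are 44.6% and 24.3% of the members, against 78.6% and 12.3% of all placed genes. The 4 of the third kind, 5.41% of the members against 0.901% of all genes, were Hoxa4, Lhx1, Nkx6-2 and Meis2. With equal numbers of peaks 1 member, Meis2, had this pattern and 2 the reverse, and the Lhx1 peak was kept in neither WT library. The fold enrichment over background of the 4 in the 2 WT libraries was 4.58 and 5.28 for Hoxa4, 2.99 and 3.14 for Lhx1, 2.92 and 3.51 for Nkx6-2, and 3.39 and 3.56 for Meis2. At Nkx6-2 the WT libraries did not share a peak. Its values belong to chr7:139582277-139582478 in WT replicate 1 and to chr7:139582769-139582937 in WT replicate 2. Of the 4, Meis2 was the one whose transcript fell at an adjusted p under 0.05. Hoxa4 transcripts were too scarce to test, with 11.7 and 5.88 (WT), 7.01 and 3.03 (Mut18), then 7.12 and 6.09 (Mut43).

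**Figure D5:**
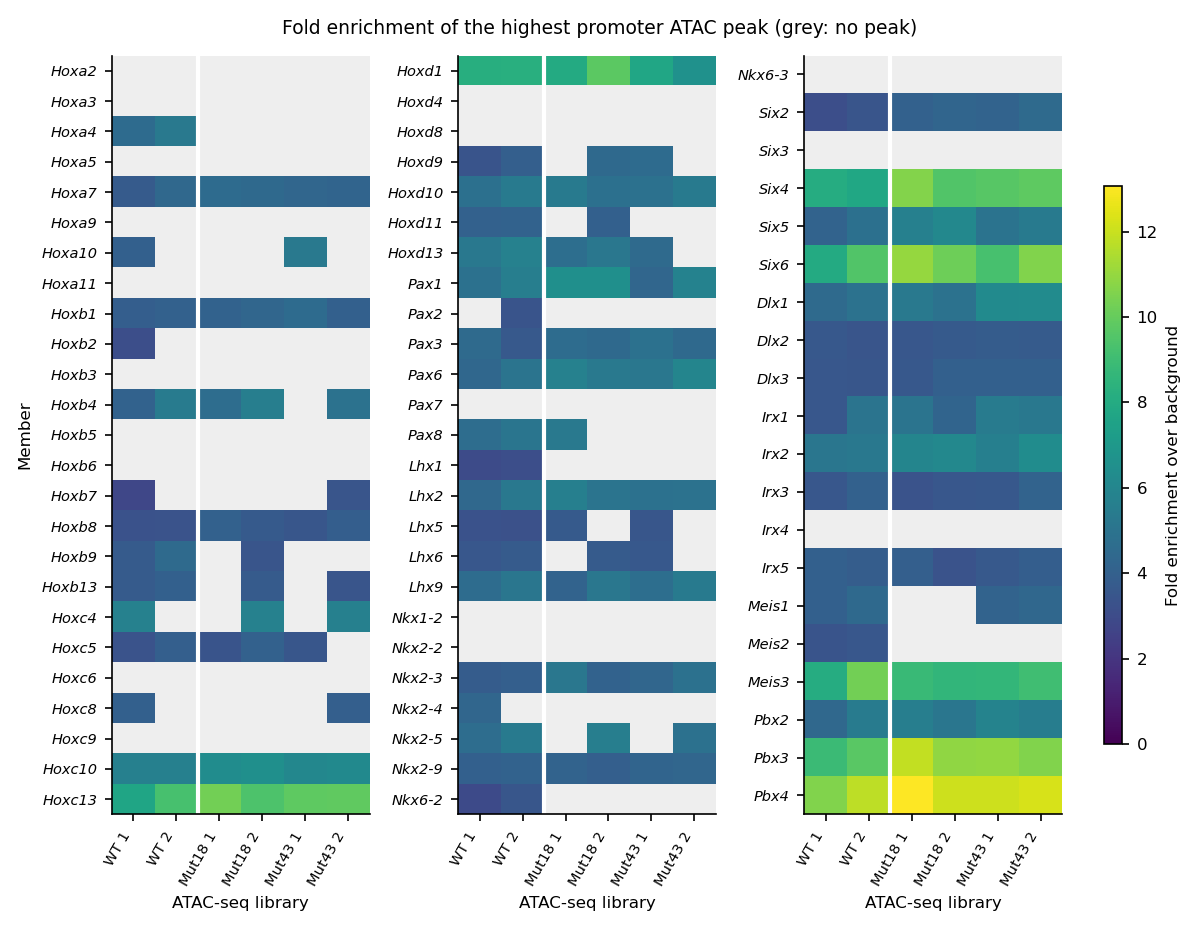
Fold enrichment over background of the highest ATAC peak at the promoter of 70 members in the 6 libraries, with grey where no peak was called and a white line between WT and mutants. Pbx4, Pbx3 and Six6 have strong peaks in every library, and the grey cells gather among the Hox genes.

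Pbx2, Pbx3 and Pbx4 and all 3 Dlx genes had a peak in every library, against 8 of 33 Hox genes. Of the 33, 12 had none in any library. Over all placed genes 78.6% had a peak in every library and 12.3% in none. Of the 12 Hox genes called lower, 5 had no promoter peak in any library, 5 were mixed, and 2, Hoxc10 among them, had one in all. At the Pbx3 promoter, whose transcript fell, the fold enrichment was 8.89 and 9.70 (WT), 11.9 and 10.9 (Mut18), then 10.97 and 10.6 (Mut43), a peak present in all mutant libraries. Fold enrichment was not scaled between libraries and was not tested.

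Within the 4 Hox clusters the WT libraries had 69 and 50 peaks, those of Mut18 38 and 44, and those of Mut43 39 and 37. Per 10000 peaks of the library this was 8.79 and 7.42 in WT and 5.62 to 6.30 in the mutants (p = 0.133, exact permutation test, two-sided), a difference of -2.21. The covered length was 20827 and 13878 bp in WT and 9274 to 12051 bp in the mutants. With equal numbers of peaks the counts were 37 and 42, 38 and 36, and 30 and 34, with overlapping groups (p = 0.267, exact permutation test). With all peaks the 2 WT libraries differed from each other by more than WT replicate 2 did from Mut18 replicate 2.

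Around the members, from 10 kb before to 10 kb after each gene, 257 merged regions held a peak. A look at these, chosen after seeing the data, gave 119 regions with a peak in all 6 libraries, 15 with one in both WT libraries alone and 0 in all mutants alone, where the shares over all regions of the genome were 54.7%, 3.25% and 0.733%. Of the 15, 7 had their WT peaks among the 63588 highest-ranked of each WT library, 3 in one WT library and 5 in neither. Of the 7, 3 lay at Meis2, 2 of them in introns, with the highest fold enrichment of all 15 (7.57 and 7.20, and 6.66 and 6.55, in the WT libraries). They are shown because Meis2 also fell in mRNA-seq, read on the forward strand of GRCm38.p6 with the bases under a peak in both WT libraries in capitals.
Meis2 intron, 186 kb from the 5′ end, chr2:115879635-115879923: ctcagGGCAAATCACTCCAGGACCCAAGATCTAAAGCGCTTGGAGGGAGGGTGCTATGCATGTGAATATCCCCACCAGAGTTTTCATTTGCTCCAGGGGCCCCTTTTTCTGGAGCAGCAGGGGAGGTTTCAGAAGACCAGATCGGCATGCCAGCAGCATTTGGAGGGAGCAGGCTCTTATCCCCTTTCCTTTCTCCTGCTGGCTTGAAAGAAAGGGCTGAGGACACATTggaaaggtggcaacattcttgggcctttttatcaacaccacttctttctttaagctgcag
Meis2 intron, 56.5 kb from the 5′ end, chr2:116009229-116009504: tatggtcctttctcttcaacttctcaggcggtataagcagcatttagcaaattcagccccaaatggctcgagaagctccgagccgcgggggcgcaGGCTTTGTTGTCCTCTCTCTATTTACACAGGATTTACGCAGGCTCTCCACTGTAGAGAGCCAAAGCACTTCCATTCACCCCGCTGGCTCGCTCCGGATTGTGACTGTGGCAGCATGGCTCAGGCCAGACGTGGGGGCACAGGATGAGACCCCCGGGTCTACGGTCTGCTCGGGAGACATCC
The third, at chr2:116065651-116065816, starts within the annotated 5′ end and is the promoter peak named above. In the same gene other regions, such as that at chr2:116020417-116021438, had a peak in all 6 libraries. A further region of the gene, at chr2:115872941-115873116, had peaks in 3 of 4 mutant libraries and in neither of WT. Near the members, no region had peaks in all mutant libraries and in no WT library, while the lists differ in length, and the part of depth in this was not tested.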

How the data were processed

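Samples were grouped by the titles given with the data: mRNA-seq and ATAC-seq of WT, Mut18 and Mut43, 2 libraries each. For mRNA-seq the authors deposited raw read counts per gene, not normalized, from libraries read as paired ends against mm10 joined with dm6. The counting program, annotation and strand are not given in the sources used here. For ATAC-seq the authors deposited peaks per library that carry a fold enrichment, which is a ratio to the background, and p and q as −log10 values. The submitters' processing notes name STAR, Bowtie2 2.3.4.2, SAMtools, deepTools 3.3.0, MACS2 and DESeq2. All count columns matched a title. ChIP-seq and the paper's Additional files were not analysed here.

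From the counts, edgeR 4.0.16 (R 4.3.3) fitted a quasi-likelihood model with TMM factors on genes passing filterByExpr (minimum count 10, total 15), 2 WT against 4 mutant libraries. Each clone and the clones against each other came from a 3-group fit. P-values were adjusted by Benjamini-Hochberg over all 14061 genes, and a call was an adjusted p under 0.05 and over 2-fold. Normalized counts are counts per TMM-scaled library, at the mean library size. Replicates of a line differed beyond counting noise. Levels per length used GENCODE vM21 exons. Promoter windows were 500 bp on each side of annotated starts, with 1 bp of overlap. Replicate numbers did not pair the libraries: replicate 1 less replicate 2 correlated at -0.014 (WT with Mut18), 0.025 (WT with Mut43) and -0.0017 (Mut18 with Mut43). The tests were checked on simulated data. DESeq2 1.42.0, limma 3.58.1, other scalings, filters, thresholds, peak settings and each library left out were alternatives.

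The members and lists were chosen with earlier results of these data known. Named with every library are members past both thresholds, members past an adjusted p of 0.05 between clones, the 2 most abundant per length of each family, those with a promoter peak by genotype, the lowest p of each Hox cluster, and of each other list the 3 called genes of lowest p with the defining markers. A few others are named where a sentence turns on them, after their values were seen. Some members are not reported here by name.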

Additional observations from a re-analysis of the deposited data

Results flagged for a closer look

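Dixon's rule was applied to the 4 mutant libraries of 43 values, among them the named members, and 4 were past its limit for 4 samples. Chance gives about 1 in 20 such groups. Hoxa5 had 11.1 normalized counts in Mut18 replicate 2, where the other mutant libraries had 4.01 to 5.09. Hoxa9 had 2.04 in Mut43 replicate 1, where the others had 12.1 to 14.0. Hoxd9 also had 2.04 in Mut43 replicate 1, against 5.01 to 5.07. Dlx2 had 11.2 in Mut43 replicate 2, where the others were 15.02 to 15.3. All 4 rest on about 2 to 15 counts a library. No member passed a test between the clones.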

How the results depend on the processing

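The count of higher members, 1, stayed at 1 under every refit, with each library left out and in each clone, and was 4 over any fold and 2 over 1.5-fold. The count of lower members, 16, was 11 with DESeq2, 20 with limma-voom, 16 with RLE factors, 18 with upper quartile factors or library totals, 20 with no filter and 12 to 24 with 1 library left out. It was 4 with a minimum count of 30, under which few scarce members were tested, 27 over 1.5-fold or any fold, 9 in Mut18 alone and 26 in Mut43 alone. Chosen after seeing the data, it was 8 for members not carried by WT counts alone and 10 for members with a mean of at least 10. Without a fold threshold Mut18 had 3 higher and 15 lower, and Mut43 had 4 higher. Replicate numbers did not pair the libraries, and with a replicate block the counts were 1 higher and 16 lower, and 0 between the clones.

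Of the 17 called members 4, Hoxb3 among them, were called under all 16 alternatives. Leaving out 1 library ended 10 calls, among them Hoxa3, Hoxc8 and Hoxc10 without WT replicate 1, Hoxd13 without WT replicate 2, Hoxd8 without either of them, Hoxa9 without WT replicate 2 or Mut43 replicate 1, Irx1 without WT replicate 2 or Mut43 replicate 2, Pax1 without either WT library or Mut43 replicate 2, and Hoxb13 without any library except Mut18 replicate 1. For Hoxd13 and, without the Mut43 library, for Hoxa9 and Irx1, the log2 fold change fell short of 2-fold (-0.95, -0.80 and -0.89) while the adjusted p stayed under 0.05. The log2 fold change of Hoxb9 was -0.0032 with limma-voom, -0.0054 with upper quartile factors, -0.027 with library totals, -0.17 in Mut43 alone, -0.37 less the chromosome median, and -0.071 to 0.12 with 1 library left out (-0.071 and -0.021 without Mut18 replicate 2 or 1). That of Nkx6-2 was -4.12e-05 with upper quartile factors, -0.021 with library totals, -0.15 in Mut18 alone, and -0.15 to 0.22 with 1 left out (-0.15 without WT replicate 1, -0.083 without Mut43 replicate 2), and that of Irx2 -0.49 to 0.093, higher without WT replicate 1. The cause was not tested.

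The difference in members with a promoter peak ran from -13.5 (a wider promoter window) to -3.25 (equal numbers), and from -14.8 to -9.75 with 1 library left out. That in Hox cluster peaks per 10000 ran from -2.23 to -0.79, and from -2.89 to -1.52 with 1 library left out. The member of highest level was the same in all 9 families with the longest transcript. Depth limits the scarce members, where counts near the filter leave intervals such as -2.15 to 0.14 for Hoxb5 on the log2 scale.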

Other observations

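By cluster, the Hoxc sum was 97.6 and 78.4 (WT), 44.1 and 41.5 (Mut18), then 29.5 and 48.7 (Mut43) and the Hoxd sum 121 and 126 (WT), 48.1 and 63.7 (Mut18), then 71.2 and 61.9 (Mut43) normalized counts, with both WT libraries above every mutant library in each. The mutant means were 50.7% of WT for Hoxa, 65.2% for Hoxb, 46.5% for Hoxc and 49.5% for Hoxd. These shares are as measured, and the Hoxb cluster lies on chromosome 11, with its higher median. In Hoxa and Hoxb the Mut43 libraries lay below the Mut18 libraries, and in Hoxd they did not.

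Pax7, a muscle and neural crest regulator, had 0.976 and 0.980 (WT), 1.00 and 8.09 (Mut18), then 5.09 and 4.06 (Mut43) normalized counts and Dlx1 had 0.976 and 0.980 (WT), 3.00 and 2.02 (Mut18), then 2.04 and 4.06 (Mut43). Both were at about 1 count in each WT library and higher or equal in every mutant library, too few to test. The Irx sum was 132 and 132 (WT), 97.1 and 81.9 (Mut18), then 89.6 and 65.97 (Mut43), lower in every mutant library than in WT, and the Lhx and Dlx sums overlapped between the groups. These genes were picked out after their values were seen.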
